A study of Mus musculus with 383 samples.

Results

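Hyaluronan, its receptor Cd44 and the large proteoglycans were followed through 10 genes in single cells of mouse skin squamous cell carcinoma. The genes were chosen by name from the 49585 genes of the count table, and all 10 were found: the hyaluronan synthases Has1 and Has2, the hyaluronan receptor Cd44, the hyaluronan-binding proteoglycans Acan (aggrecan) and Vcan (versican), the basement membrane proteoglycan Hspg2 (perlecan), the syndecans Sdc1, Sdc2 and Sdc4, and the glypican Gpc1. The populations compared were YFP+/Epcam- cells, with 310 labelled single cells, and YFP+/Epcam+ cells, with 70. Epcam is an epithelial adhesion protein, and cells with and without it at the surface were sorted apart. All tumours came from mice that carried, among other alleles, Lgr5CreER, floxed p53 on both chromosomes (p53fl/fl) and a Rosa26-YFP reporter (+/+). Cre was thus driven from Lgr5, a gene of hair follicle stem cells, and YFP marks cells in which Cre has been active. The labels name no animal, age, tumour or culture, so each population is 1 sample, cells are not replicates, and no test between the populations was possible.

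Hyaluronan is an unsulfated sugar chain that synthases at the cell surface build from UDP-sugars and push out into the matrix, without a protein core. Proteoglycans carry sulfated chains on a protein core: aggrecan and versican carry chondroitin sulfate and bind hyaluronan, while perlecan, syndecans and glypicans mainly carry heparan sulfate. Syndecans span the membrane, glypicans are held to it by a lipid anchor, and both hold growth factors at the cell surface. In normal skin, hyaluronan fills the spaces between keratinocytes and the dermal matrix, syndecan-1 is the main syndecan of the epidermis, and perlecan lies in the basement membrane under it.

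After 47 Epcam-negative and 8 Epcam-positive cells of low depth or quality were left out, the kept Epcam-negative cells had 107313931 gene reads in sum and the 62 kept Epcam-positive cells had 24840769. The depth per cell was close, with medians of 414731 gene reads in Epcam-negative and 413142 gene reads in Epcam-positive cells. Epcam-negative cells lay in plate rows D to P and Epcam-positive cells in rows A to C of the same plate, so the effect of the gate and that of the plate row cannot be told apart. In sum, markers followed the gates. The 5 epithelial markers summed to 2425 CPM (counts scaled to the gene reads of the population) in Epcam-negative cells, against 19709 CPM in Epcam-positive cells. The 5 mesenchymal markers summed to 13375 CPM in Epcam-negative and 642 CPM in Epcam-positive cells. Single cells were less distinct, with at least 1 epithelial marker present in 47.9% of Epcam-negative and 100% of Epcam-positive cells. At least 1 mesenchymal marker was present in 98.5% of Epcam-negative and 48.4% of Epcam-positive cells. The Epcam transcript itself was present in 11 Epcam-negative cells (4.18%) and in all but 1 of the Epcam-positive cells. Leukocyte markers summed to 10.5 CPM in Epcam-negative cells and 14.1 CPM in Epcam-positive cells, with Ptprc at 0.0932 CPM in Epcam-negative and 0 CPM in Epcam-positive cells. Endothelial markers summed to 4.66 CPM in Epcam-negative and 15.7 CPM in Epcam-positive cells, with Tek at 0 in both populations, and the melanocyte list to 7.90 CPM in Epcam-negative and 7.89 CPM in Epcam-positive cells. Of the 4 endothelial genes, 1 reached 10 CPM in a population, with a log2 ratio of -1.35. At least 1 endothelial gene was present in 3.42% of Epcam-negative and 9.68% of Epcam-positive cells. For leukocyte genes these shares were 4.56% and 3.23%, and for melanocyte genes 6.46% and 4.84%. The pericyte and dermal fibroblast list stood apart, at 395 CPM in Epcam-negative cells and 14.2 CPM in Epcam-positive cells: Pdgfra, Dpt, Rgs5 and Des had 262.4, 119.5, 13.2 and 0.103 CPM in Epcam-negative cells, against 14.1, 0.121, 0 and 0 CPM in Epcam-positive cells. At least 1 gene of that list was found in 66.5% of the Epcam-negative cells and 6.45% of the Epcam-positive ones, and its part in the results below was not tested. A well labelled as holding 0 cells of the YFP+/Epcam+ gate went against its label, with 99241 gene reads over 8248 genes, 695 CPM of Epcam and 374 reads of the 10 genes; it entered no sum.

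Summed over cells, 9 of the 10 transcripts were higher and 1 was lower in Epcam-negative than in Epcam-positive tumour cells. In Epcam-negative cells Has1, Vcan, Hspg2, Acan and Sdc2 were at least 2-fold higher, Sdc1 was at least 2-fold lower, and Has2, Cd44, Sdc4 and Gpc1 differed by less. The order among the 5 higher genes moved with the settings: Sdc2, the lowest of them at a log2 ratio of 2.21, was above Hspg2 and Acan in plate columns 1 to 12 (2.56, against 2.43 and 2.13) and, with a pseudocount (the constant added to both levels) of 10 CPM in place of 1, also above Has1. Cd44 and Sdc4, the most abundant of the 10 in Epcam-negative cells, were 1.29-fold and 1.33-fold higher there. The 5 higher genes and the 1 lower gene stand beside a background of 15.3% higher and 12.9% lower among the 9574 genes that reached 10 CPM in one population or both. The median log2 ratio of the 10 genes was 1.58, beside -0.08 for all 9574 genes. The 10 genes were chosen with earlier results of these data known, so the background describes them and is no test of enrichment. Each log2 ratio sets CPM + 1 of Epcam-negative cells over CPM + 1 of Epcam-positive cells, and the 95% intervals are exact and cover counting error only. Over all measured genes, 1467 were at least 2-fold higher and 1233 lower; scaled to spike-in reads these counts were 1066 and 2216, the 10 genes then still giving 5 higher and 1 lower.

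**Figure D1:**
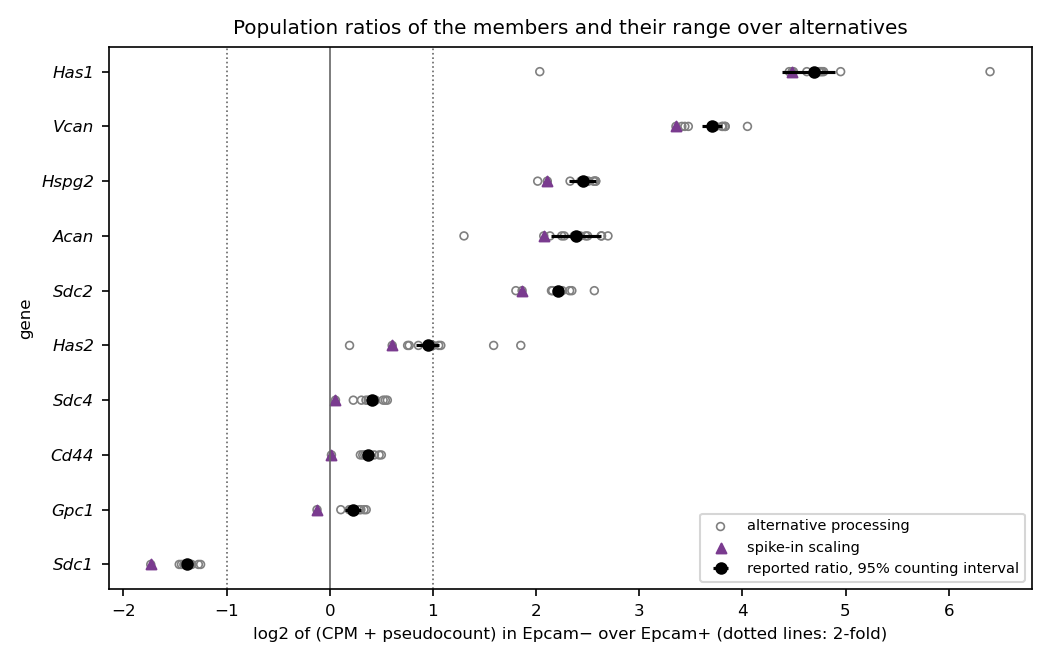
Log2 ratio of each gene in Epcam-negative over Epcam-positive cells (x axis) for the 10 genes (y axis), with 95% counting intervals as lines, 12 alternative ways of processing as open circles, of which spike-in scaling is also marked by a triangle. Has1, Vcan, Hspg2, Acan and Sdc2 lie beyond the 2-fold line in all of them and Sdc1 beyond the opposite one, whereas Gpc1 changes sign under spike-in scaling, at -0.12.

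Regulatory sequence just around the start of transcription was read for the 3 genes with the highest ratios at a pseudocount of 1 CPM and for Sdc1, the 1 lower gene, to show what both directions look like side by side. RefSeq promoter windows (GRCm38.p6, 250 bases before to 50 after the RefSeq start) matched 7 of the 10 genes; Has2, Sdc2 and Gpc1 had no entry. Capitals mark the GC box GGGCGG on either strand (CCGCCC on the printed one for a match on the other), the class of site bound by Sp1. The windows are Has1 at chr17:17855139-17855438 (minus strand), Vcan at chr13:89742463-89742762 (minus), Hspg2 at chr4:137468553-137468852 (plus) and Sdc1 at chr12:8771146-8771445 (plus).
Has1: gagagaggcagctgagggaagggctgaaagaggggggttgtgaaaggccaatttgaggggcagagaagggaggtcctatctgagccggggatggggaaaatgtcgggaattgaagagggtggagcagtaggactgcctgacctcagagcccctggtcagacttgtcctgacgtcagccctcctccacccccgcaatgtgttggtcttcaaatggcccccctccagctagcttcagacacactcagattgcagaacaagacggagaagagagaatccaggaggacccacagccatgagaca
Vcan: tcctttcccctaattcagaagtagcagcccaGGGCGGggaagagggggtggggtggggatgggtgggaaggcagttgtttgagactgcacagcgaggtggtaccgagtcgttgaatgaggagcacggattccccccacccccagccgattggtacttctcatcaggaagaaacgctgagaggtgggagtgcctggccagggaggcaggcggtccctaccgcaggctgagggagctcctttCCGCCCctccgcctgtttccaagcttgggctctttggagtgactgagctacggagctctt
Hspg2: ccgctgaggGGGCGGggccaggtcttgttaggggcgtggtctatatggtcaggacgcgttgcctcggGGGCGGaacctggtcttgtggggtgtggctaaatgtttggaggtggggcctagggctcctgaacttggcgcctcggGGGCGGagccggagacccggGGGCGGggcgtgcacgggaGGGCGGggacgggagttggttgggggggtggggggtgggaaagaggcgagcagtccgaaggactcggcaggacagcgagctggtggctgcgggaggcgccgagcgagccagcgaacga
Sdc1: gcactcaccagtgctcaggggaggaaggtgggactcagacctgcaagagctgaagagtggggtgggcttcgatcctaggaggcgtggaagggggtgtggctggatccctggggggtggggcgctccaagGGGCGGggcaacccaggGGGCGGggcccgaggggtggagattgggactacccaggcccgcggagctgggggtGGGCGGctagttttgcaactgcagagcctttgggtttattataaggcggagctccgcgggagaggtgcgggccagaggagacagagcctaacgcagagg
The Has1 window held no GC box, 57% G and C and 5 CpG dinucleotides. The Vcan window held 2 GC boxes, 61% G and C and 12 CpG, the Hspg2 window 5 GC boxes, 70.3% and 27 CpG, and the Sdc1 window 3 GC boxes, 66.3% and 14 CpG. Of the windows not printed, Cd44 held 1 GC box, Acan 3 and Sdc4 4. So 6 of the 7 windows held a GC box, against 35.7% of all 32851 promoter windows of the same length. The E-box CAGGTG, bound by Snail and Zeb factors, the AP-1 site TGANTCA and the TATA box TATAAA were in none of the 7 windows, against 20.2%, 7.81% and 13.6% of all windows, both strands searched. The TEAD site GGAATG was in the Acan window alone of the 7, against 14.7% of all windows, and overlapped a GC box there. These are matches of letters in short windows, and the higher genes and the lower one did not separate by any of the 5 motifs.

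Has1, a hyaluronan synthase (ENSMUSG00000003665.6, chr17:17843323-17855205, minus strand, GENCODE vM21 on GRCm38), had few reads in Epcam-positive cells, so the size of its ratio depended on the pseudocount. In Epcam-negative cells the lowest, median and highest values were 0, 0 and 951 CPM, and in Epcam-positive cells 0, 0 and 8.66 CPM. Most cells of both populations had no read of it, and 5 Epcam-negative cells held more than 50% of its reads. In sum, Has1 had 3451 reads or 32.2 CPM in Epcam-negative cells, against 7 reads or 0.282 CPM in Epcam-positive cells, a log2 ratio of 4.69 (4.39 to 4.90). That was the highest of the 10 with a pseudocount of 1 CPM; with 0.1 CPM it was 6.40, and with 10 CPM it was 2.04, below Vcan (3.41) and Sdc2 (2.15). With every cell thinned to 100000 gene reads and at least 5 reads taken as present, Has1 was present in 10.6% of Epcam-negative cells (exact interval 7.19 to 15.02%), against 0 of 62 Epcam-positive cells, which allows a share of up to 4.84% by the limit of 3 counts and 5.78% by the exact interval. At least 1 read of Has1 was seen in 88 Epcam-negative cells and 5 Epcam-positive cells, and 28 of the 88 reached the level called present, about 50 CPM, so most cells with a read had little of it.

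Has2, the synthase that makes most hyaluronan in embryonic and connective tissue (ENSMUSG00000022367.7, chr15:56665627-56694539, minus strand), had a lowest, median and highest value of 0, 3.69 and 1165 CPM in Epcam-negative cells, against 0, 0 and 968 CPM in Epcam-positive cells. The ranges overlapped almost wholly, and the difference lay in how many cells carried it: 24.7% of Epcam-negative cells (19.6 to 30.4%), against 9.68% of Epcam-positive cells (3.63 to 19.9%) had it present. Summed levels were 53.7 CPM in Epcam-negative cells and 27.3 CPM in Epcam-positive cells, a log2 ratio of 0.95 (0.84 to 1.06). A single Epcam-positive cell held 41.97% of that population's Has2 reads, and leaving it out gave 16.1 CPM in Epcam-positive cells and a log2 ratio of 1.68. By plate position the ratio was 1.85 on the left side (columns 1 to 12) and 0.19 on the right (columns 13 to 24). Epcam-negative cells had 56.4 CPM on the left and 49.8 CPM on the right, and Epcam-positive cells 14.9 and 43.5 CPM. The Epcam-positive cell with most Has2 reads lay on the right side, and the ratio of that side without it was not calculated. Has2 shares a short stretch of exon with Has2os on the opposite strand, which had 3.45 CPM in Epcam-negative and 2.62 CPM in Epcam-positive cells; the strand setting of the counting is not given in the sources used here. Both synthases together were present in 12 Epcam-negative cells, 4.56% (2.38 to 7.83%), and in 0 Epcam-positive cells. The product of the single shares in Epcam-negative cells, 2.63%, lies inside that interval. At 1 read the share and the product were 11.4% and 9.72%, and at 20 reads 0.380% and 0.376%.

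Cd44, the main cell-surface receptor for hyaluronan and a widely used marker of tumour-propagating cells (ENSMUSG00000005087.17, chr2:102811141-102901665, minus strand), was abundant in nearly every tumour cell. Its lowest, median and highest values were 5.60, 1238 and 11031 CPM in Epcam-negative cells and 69.05, 1075 and 3657 CPM in Epcam-positive cells. The highest and the lowest cells were both Epcam-negative, and the bulk of the populations overlapped. In sum Cd44 had 1506 CPM in Epcam-negative cells and 1167 CPM in Epcam-positive cells, a log2 ratio of 0.37 (0.35 to 0.39) that was 0.02 under spike-in scaling. It was present in 96.6% of Epcam-negative cells (93.6 to 98.4%), against 100% of Epcam-positive cells (94.2 to 100%). Nearly all cells with a hyaluronan synthase therefore also had the receptor: all 28 Epcam-negative cells with Has1 and 64 of the 65 with Has2 had Cd44 present. Counts are per gene, so the standard and variant-exon forms of Cd44 were not separated.

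Vcan, the large chondroitin sulfate proteoglycan of loose and provisional matrix (ENSMUSG00000021614.16, chr13:89655312-89742509, minus strand), differed between the populations in most cells. The lowest, median and highest values were 0, 325 and 4682 CPM in Epcam-negative cells and 0, 2.68 and 328 CPM in Epcam-positive cells. The interquartile ranges did not overlap, since the lower quartile was 70.3 CPM in Epcam-negative cells and the upper quartile 40.1 CPM in Epcam-positive cells. In sum Vcan had 476 CPM in Epcam-negative cells and 35.6 CPM in Epcam-positive cells, a 13.02-fold difference and a log2 ratio of 3.70 (3.61 to 3.80). It was present in 79.1% of Epcam-negative cells (73.7 to 83.8%), against 24.2% of Epcam-positive cells (14.2 to 36.7%).

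Acan, the proteoglycan that forms large aggregates with hyaluronan in cartilage (ENSMUSG00000030607.7, chr7:79053483-79115099, plus strand), was lower in level and sparse. Its lowest, median and highest values were 0, 0 and 918 CPM in Epcam-negative cells, against 0, 0 and 98.5 CPM in Epcam-positive cells. Most cells of both populations lacked it, and 10 Epcam-negative cells held more than 50% of its reads there. In sum Acan had 24.0 CPM in Epcam-negative cells and 3.78 CPM in Epcam-positive cells, a log2 ratio of 2.38 (2.14 to 2.63). It was present in 14.4% of Epcam-negative cells (10.4 to 19.3%), against 4.84% of Epcam-positive cells (1.01 to 13.5%). Of the defining cartilage genes, Col2a1, Col11a2, Col9a1 and Comp had 0.457, 0.0652, 0 and 9.14 CPM in Epcam-negative cells, against 0.0403, 0.0403, 0 and 0 CPM in Epcam-positive cells. Sox9, which skin also expresses, had 260.8 CPM in Epcam-negative and 342 CPM in Epcam-positive cells.

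Hspg2, which encodes perlecan (ENSMUSG00000028763.17, chr4:137468769-137570630, plus strand), followed the pattern of Vcan at a lower level. Epcam-negative cells had a lowest, median and highest value of 0, 72.2 and 674 CPM, and Epcam-positive cells of 0, 6.99 and 137.2 CPM. Here too the interquartile ranges did not overlap, with a lower quartile of 24.0 CPM in Epcam-negative cells and an upper quartile of 20.4 CPM in Epcam-positive cells. The summed level was 104.3 CPM in Epcam-negative cells and 18.3 CPM in Epcam-positive cells, a log2 ratio of 2.45 (2.32 to 2.58). Hspg2 was present in 59.3% of Epcam-negative cells (53.1 to 65.3%), against 11.3% of Epcam-positive cells (4.66 to 21.9%).

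**Figure D2:**
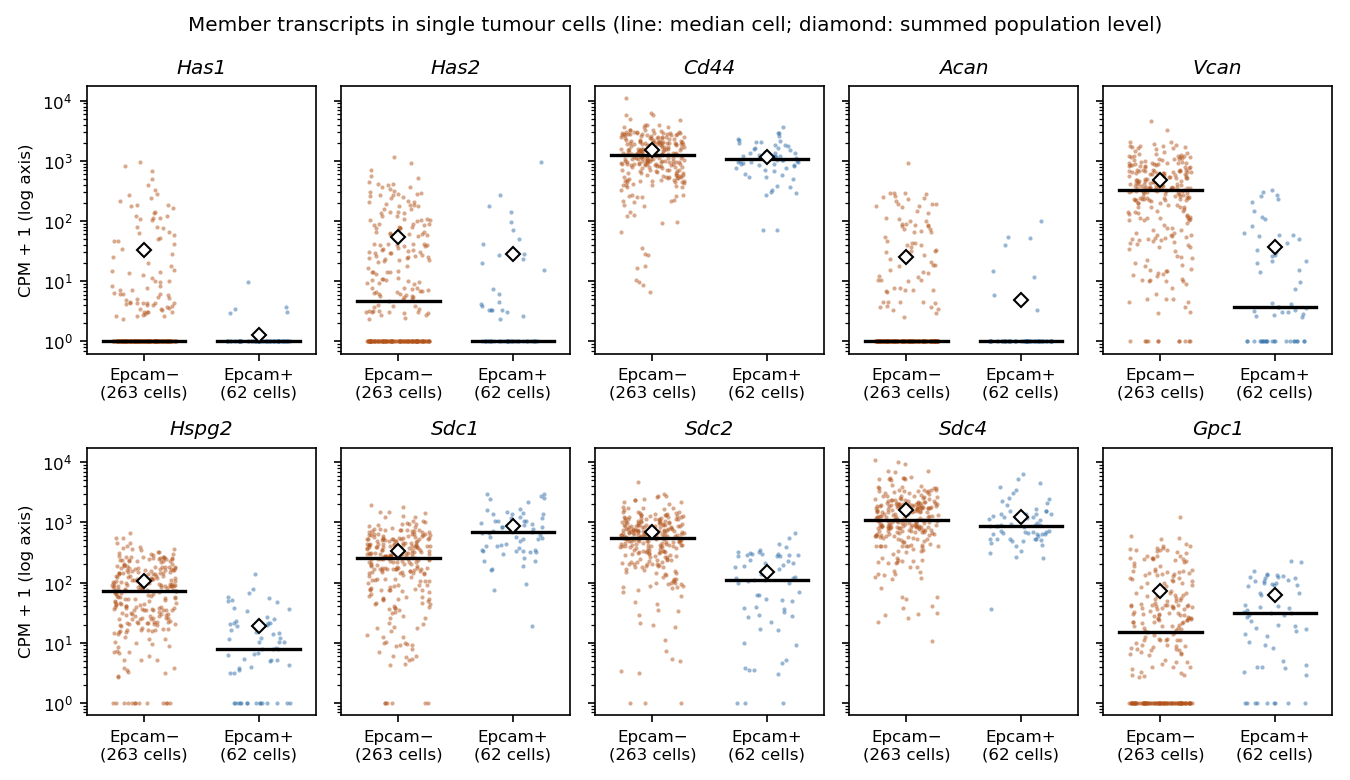
CPM + 1 on a log axis (y) for each gene in Epcam-negative cells (left, orange) and Epcam-positive cells (right, blue), 1 point per cell, with the median cell as a line and the summed population level as a diamond. Vcan, Hspg2 and Sdc2 shift as whole populations, and Sdc1 runs the other way. Has1 and Acan sit at 0 in most cells with a minority far above. Has2 also has a minority far above, with a median of 3.69 CPM in Epcam-negative and 0 CPM in Epcam-positive cells.

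The 3 syndecans went in different directions. Sdc1, the syndecan of keratinocytes (ENSMUSG00000020592.14, chr12:8771323-8793715, plus strand), had a lowest, median and highest value of 0, 253.7 and 1982 CPM in Epcam-negative cells and 17.6, 678.5 and 2972 CPM in Epcam-positive cells. The populations overlapped, with the upper quartile of Epcam-negative cells at 466 CPM and the lower quartile of Epcam-positive cells at 348 CPM. In sum Sdc1 had 329 CPM in Epcam-negative cells and 861 CPM in Epcam-positive cells, a log2 ratio of -1.38 (-1.41 to -1.36), or 2.61-fold lower in Epcam-negative cells. It was still present in 83.7% of Epcam-negative cells (78.6 to 87.9%), against 96.8% of Epcam-positive cells (88.8 to 99.6%), so most Epcam-negative cells had the transcript, at a lower level.

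Sdc2, the syndecan typical of mesenchymal cells (ENSMUSG00000022261.5, chr15:32920723-33034935, plus strand), ran the opposite way, with a lowest, median and highest value of 0, 554 and 4733 CPM in Epcam-negative cells and 0, 108.3 and 672 CPM in Epcam-positive cells. The lower quartile of Epcam-negative cells stood almost at the upper quartile of Epcam-positive cells, 270.2 CPM. Its sum was 693 CPM in Epcam-negative cells and 148.5 CPM in Epcam-positive cells, a log2 ratio of 2.21 (2.17 to 2.26), and it was present in 93.9% of Epcam-negative cells (90.3 to 96.5%), against 62.9% of Epcam-positive cells (49.7 to 74.8%). Sdc4, the widely expressed syndecan of focal adhesions (ENSMUSG00000017009.3, chr2:164424247-164443887, minus strand), had 9.58, 1099 and 11002 CPM as lowest, median and highest value in Epcam-negative cells and 35.4, 867 and 6459 CPM in Epcam-positive cells. The ranges overlapped, and its sums of 1632 CPM in Epcam-negative cells and 1231 CPM in Epcam-positive cells gave a log2 ratio of 0.41 (0.39 to 0.42), which was 0.06 under spike-in scaling. All 3 syndecans were present in 77.6% of Epcam-negative cells, against 62.9% of Epcam-positive cells. Sdc1 together with Sdc2 was seen in 79.5% of Epcam-negative cells, beside a product of the single shares of 78.6%, and in 62.9% of Epcam-positive cells, beside 60.9%. Sdc1 without Sdc2 was found in 11 Epcam-negative and 21 Epcam-positive cells, and Sdc2 without Sdc1 in 38 Epcam-negative and 0 Epcam-positive cells.

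Gpc1, a glypican (ENSMUSG00000034220.7, chr1:92831645-92860779, plus strand), showed no difference that held across scalings. Its lowest, median and highest values were 0, 13.97 and 1216 CPM in Epcam-negative cells and 0, 30.3 and 225.2 CPM in Epcam-positive cells. The median cell was lower in Epcam-negative cells while the sum was higher, at 70.9 CPM against 60.6 CPM in Epcam-positive cells. Of its reads in Epcam-negative cells, more than 50% came from 18 cells. The log2 ratio was 0.22 (0.14 to 0.30), and -0.12 under spike-in scaling. It was present in 30.8% of Epcam-negative cells (25.3 to 36.8%), against 38.7% of Epcam-positive cells (26.6 to 51.9%). The direction turned with the level taken as presence. At 1 thinned read the shares were 55.9% of Epcam-negative and 75.8% of Epcam-positive cells, and at 20 reads 10.6% and 4.84%. In Epcam-positive cells Gpc1 was also higher in deeper cells, with a Spearman rho of 0.46 against gene reads per cell. It shares 977 exon bases with Ankmy1 on the opposite strand, which had 0.0373 CPM in Epcam-negative cells, against 0 CPM in Epcam-positive cells.

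**Figure D3:**
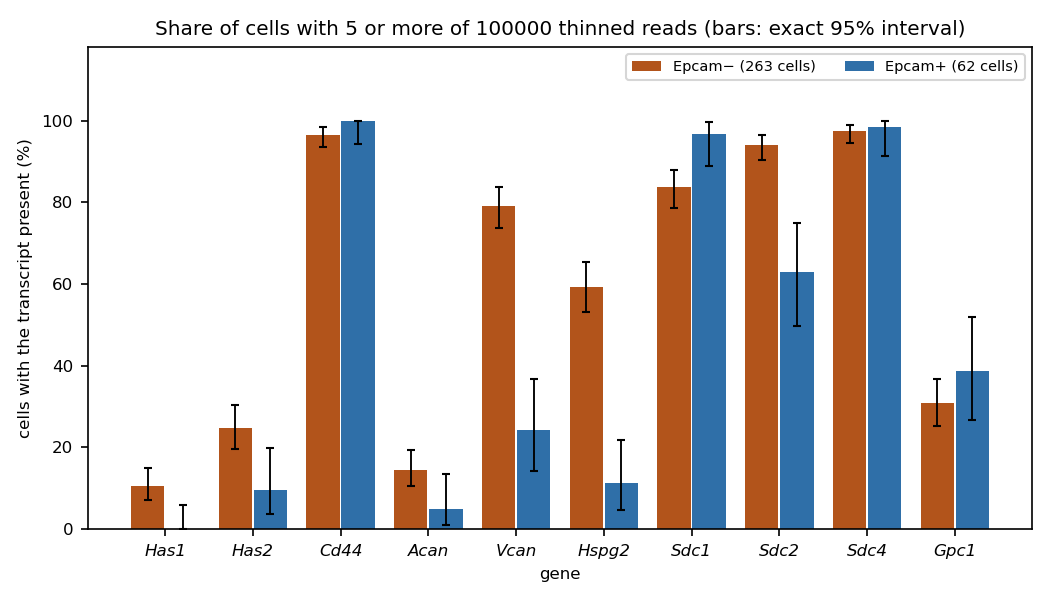
Share of cells in percent (y) with at least 5 of 100000 thinned reads of each gene (x) in Epcam-negative (orange) and Epcam-positive cells (blue); bars start at 0 and lines are exact 95% intervals. Vcan, present in 79.1% of Epcam-negative and 24.2% of Epcam-positive cells, and Hspg2, in 59.3% and 11.3%, show the widest gaps, while Cd44 and Sdc4 are near the top in both.

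Levels between genes can be set side by side only per length, as CPM per kilobase of exon. Length here is that of all annotated exons of a gene merged. The forms expressed were not separated, so the orders are approximate. In Epcam-negative cells the order was Sdc4 with 641, Cd44 with 222.2, Sdc2 with 196.5, Sdc1 with 86.5, Vcan with 32.9, Gpc1 with 13.7, Has2 with 12.7, Hspg2 with 7.29, Has1 with 7.12 and Acan with 3.21 CPM per kilobase. Hspg2 and Has1 were neighbours within counting error, with intervals of 7.16 to 7.43 and 6.88 to 7.36. In Epcam-positive cells Sdc4 again led with 483, followed by Sdc1 with 226.1, Cd44 with 172.2, Sdc2 with 42.1, Gpc1 with 11.7, Has2 with 6.45, Vcan with 2.46, Hspg2 with 1.28, Acan with 0.507 and Has1 with 0.0624 CPM per kilobase. The order of the syndecans thus was Sdc4, Sdc2, Sdc1 in Epcam-negative cells and Sdc4, Sdc1, Sdc2 in Epcam-positive cells. The spread over animals is not known, so these orders describe 1 sample each.

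Of the 10 transcripts, the median cell had 6 present among Epcam-negative cells and 5 among Epcam-positive cells, and 5 Epcam-negative cells had 9. Acan and Hspg2, both higher in Epcam-negative cells, were seldom in the same cell: 9 Epcam-negative cells (3.42%, 1.58 to 6.40%) had both, where the product of the single shares is 8.57%. With a single read taken as presence the same figures were 22.4% and 21.9%, so the gap was seen at the 5-read level and not at 1 read. Acan coincided with Has1 in 11 Epcam-negative cells, 4.18% (2.11 to 7.36%) beside a product of 1.54%. For Acan and Has1 the share and the product were 8.75% and 5.34% at 1 read, and 0.380% and 0.159% at 20 reads. Both pairs with Acan were picked from all pairs of the 10 genes, so an interval that leaves out the product is no test. Vcan occurred together with Hspg2 in 50.2% of Epcam-negative cells, beside a product of 46.9%, and in 0 of 62 Epcam-positive cells, beside a product of 2.73%; at 1 read both were present in 24.2% of Epcam-positive cells, beside a product of 22.6%, so the 0 shows no separation.

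Among the kept Epcam-negative cells (310 labelled less the 47 left out), Spearman correlations of CPM were taken between the genes present in at least 30% of cells. The pairs of these genes furthest from 0 are named, and no grouping was calculated. Cd44 had similar values with Vcan (0.22), Sdc4 (0.20) and Sdc1 (0.19). All correlations here are descriptions over cells of 1 plate that differ in depth, with no test. Sdc1 and Gpc1 went together (rho 0.46), as did Hspg2 with Sdc2 (0.34) and Vcan with Sdc2 (0.32), while Hspg2 and Sdc1 went apart (-0.24). Hspg2 and Sdc2 followed the collagen gene Col1a1 (0.45 and 0.44) and ran against the basal keratin Krt14 (-0.45 and -0.37). Sdc1 and Gpc1 followed Krt14 (0.33 and 0.25), and Vcan ran against it (-0.25). Cd44 was near 0 with Krt14 (0.01) and Col1a1 (-0.01) and followed Vim, the vimentin gene, weakly (0.26). The correlation of Sdc1 with Gpc1 was 0.45 on the left side of the plate (columns 1 to 12), 0.47 on the right side (columns 13 to 24) and 0.46 without the 11 cells that had the Epcam transcript present. In the 62 Epcam-positive cells the same pair had a rho of -0.21, with -0.12 on the left side and -0.24 on the right. Against genes per cell, Sdc1 had a rho of -0.36 there and Gpc1 0.45. The part of this in the rho of the pair was not tested. Sdc1 followed Epcam (0.44) in the Epcam-positive cells.

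**Figure D4:**
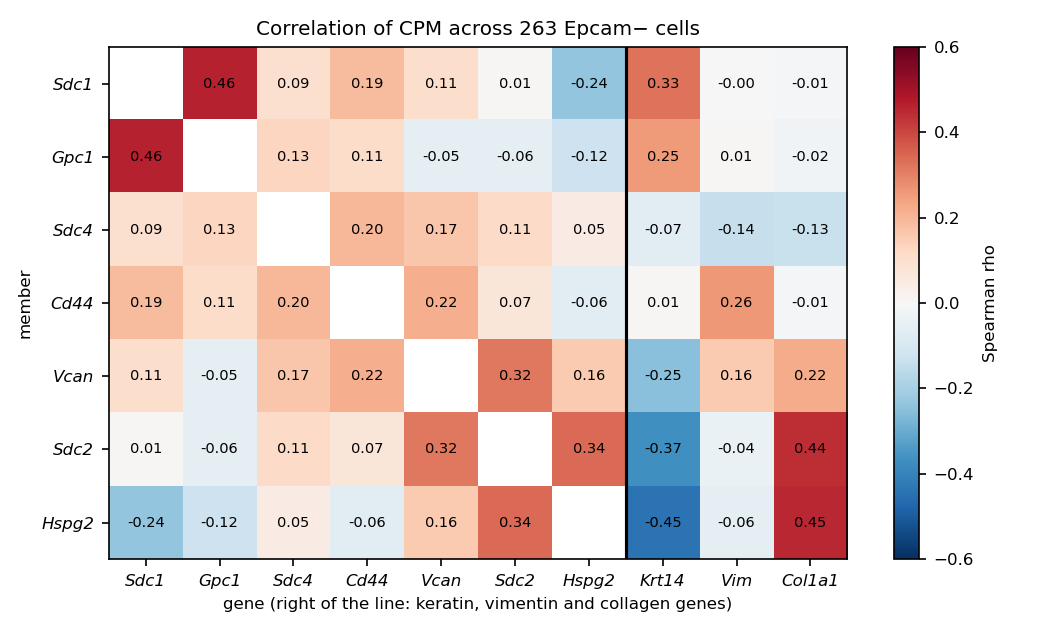
Spearman rho of CPM across the kept Epcam-negative cells between the 7 genes present in at least 30% of them (rows) and the same genes, Krt14, Vim and Col1a1 (columns); red is positive and blue negative. Sdc1 and Gpc1 pair at 0.46 and lean towards Krt14, while Sdc2 and Hspg2 lean towards Col1a1 at 0.44 and 0.45.

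The genes most like each of these 7, by rho over the same Epcam-negative cells among 3618 genes present in at least 30% of them, differed from gene to gene. Hspg2 was most like the matrix genes Col1a2 (0.56), Fn1 (0.52) and Loxl1 (0.51), and Sdc2 most like Col3a1 (0.47), Fn1 (0.46) and Col1a1 (0.44). Vcan was most like Lhfpl2 (0.44), Matn2 (0.42), which encodes a matrilin, and the transcription factor gene Tcf4 (0.41). Sdc1 was most like Ctsc (0.52), a lysosomal protease gene, Pkp1 (0.50), a desmosome gene, and Anxa8 (0.50). Gpc1 was most like Fbln1 (0.46), Sdc1 (0.46) and Fxyd5 (0.45). The genes most like Cd44 were Nfkb1 (0.41) and the phosphatase genes Dusp5 (0.41) and Dusp10 (0.40), and those most like Sdc4 were Kdm6b, Odc1 and Cebpb (0.37 each).

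Other genes that act on hyaluronan and proteoglycans were taken as 10 lists, of which 82 genes reached 10 CPM in one population or both. Of these 82, 33 were higher by 2-fold or more in Epcam-negative cells and 8 lower, with a median log2 ratio of 0.66. The lists too were chosen with earlier results of these data known. Among all measured genes 15.3% were higher and 12.9% lower by this fold, and the counts for hyaluronan breakdown, syndecan partners and linkage enzymes below, 1 higher of 6 each, are near that share. Among the 8 genes for hyaluronan precursors and the third synthase, all measured, 4 were 2-fold or more higher and 1 lower. Has3, a synthase known from keratinocytes, was the lower one, with 0.596 CPM in Epcam-negative cells and 16.4 CPM in Epcam-positive cells (log2 ratio -3.44), so the synthases did not go the same way. Gfpt2, which starts the hexosamine pathway, had 78.5 CPM in Epcam-negative and 14.1 CPM in Epcam-positive cells (2.40, or 3.05 without 1 Epcam-positive cell), and Pgm3, of the same pathway, 41.4 CPM in Epcam-negative and 14.9 CPM in Epcam-positive cells (1.42).

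Of the 8 genes of hyaluronan breakdown, 6 were measured, 1 of them 2-fold or more higher and 1 lower. Hexa, a lysosomal hexosaminidase subunit, had 166.7 CPM in Epcam-negative cells and 19.9 CPM in Epcam-positive cells (log2 ratio 3.00). Hyal1, the lysosomal hyaluronidase, had 7.21 CPM in Epcam-negative cells and 27.5 CPM in Epcam-positive cells (-1.79), and Hyal2, the surface hyaluronidase, 19.1 CPM in Epcam-negative and 13.9 CPM in Epcam-positive cells (0.43). Among 12 other hyaluronan-binding genes, 5 were measured, 2 higher and 2 lower. Tnfaip6 (TSG-6), which transfers heavy chains onto hyaluronan, had the widest difference of these lists, 186.8 CPM in Epcam-negative cells and 0.604 CPM in Epcam-positive cells (6.87). Layn, a hyaluronan receptor gene, had 41.1 CPM in Epcam-negative and 6.24 CPM in Epcam-positive cells (2.54), whereas the scavenger receptor gene Stab1 had 6.21 CPM in Epcam-negative and 54.7 CPM in Epcam-positive cells (-2.95) and Hmmr, also a gene of dividing cells, 14.4 CPM in Epcam-negative and 30.3 CPM in Epcam-positive cells (-1.02). The median of this list, 0.12, is the value of Itih5, named here after its values were seen, and 1 Epcam-positive cell set it: without that cell Itih5 was 3.09.

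Around Cd44, 11 genes for linkers, a ligand, sheddases and splicing factors were all measured, 2 being 2-fold or more higher and 3 lower. Beside the shares over all measured genes, 15.3% higher and 12.9% lower, the 2 higher of 11 are near the background. Spp1 (osteopontin), a Cd44 ligand, had 1868 CPM in Epcam-negative cells and 203.3 CPM in Epcam-positive cells (log2 ratio 3.19), and the membrane protease gene Mmp14 676 CPM in Epcam-negative and 192.9 CPM in Epcam-positive cells (1.80). Esrp1 and Esrp2, which set epithelial splicing including the variant exons of Cd44, had 4.81 and 3.12 CPM in Epcam-negative cells, against 112.7 and 30.6 CPM in Epcam-positive cells (-4.29 and -2.94). Of 7 syndecan partners, 6 were measured and 1 was 2-fold or more higher: Prkca, a kinase that binds Sdc4, with 32.4 CPM in Epcam-negative and 11.2 CPM in Epcam-positive cells (1.45, or 2.14 without 1 Epcam-positive cell). Cask, a scaffold that binds syndecan tails, had 85.9 CPM in Epcam-negative and 47.9 CPM in Epcam-positive cells (0.83), and Tiam1, a Rac activator, 9.10 CPM in Epcam-negative and 16.7 CPM in Epcam-positive cells (-0.81).

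Other proteoglycan cores had 9 of 17 measured, 5 being 2-fold or more higher and 1 lower. Gpc6, another glypican, had 131.7 CPM in Epcam-negative cells and 15.5 CPM in Epcam-positive cells (log2 ratio 3.01). Prg4 (lubricin) had 12.7 CPM in Epcam-negative and 0.644 CPM in Epcam-positive cells (3.06), and the receptor phosphatase Ptprz1, itself a chondroitin sulfate proteoglycan, 10.6 CPM in Epcam-negative and 128.7 CPM in Epcam-positive cells (-3.48). Enzymes that build the linkage between chain and core had 6 of 7 measured, with 1 higher and 0 lower by 2-fold. Pxylp1, a xylose phosphatase, had 18.1 CPM in Epcam-negative cells and 5.56 CPM in Epcam-positive cells (1.54, or 2.49 without 1 Epcam-positive cell). The xylose kinase gene Fam20b was present in 34.98% of Epcam-negative and 56.5% of Epcam-positive cells (log2 ratio of the sums -0.66), and the xylosyltransferase gene Xylt2 had 13.8 CPM in Epcam-negative and 9.06 CPM in Epcam-positive cells (0.56).

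Enzymes that build and sulfate the chains were counted by class, and the classes were not tested against each other. Of 16 chondroitin and dermatan sulfate enzymes, 13 were measured, 9 of them higher by 2-fold or more in Epcam-negative cells and 0 lower, with a median log2 ratio of 1.34. Ust, a uronyl 2-sulfotransferase, had 29.4 CPM in Epcam-negative and 3.10 CPM in Epcam-positive cells (2.89), and the 4-sulfotransferase gene Chst12 65.4 CPM in Epcam-negative and 13.3 CPM in Epcam-positive cells (2.22). Chst13, also a 4-sulfotransferase, had 18.9 CPM in Epcam-negative and 1.127 CPM in Epcam-positive cells (3.22, or 4.25 without the 1 Epcam-positive cell that held most of its reads). Of 23 heparan sulfate enzymes, 13 were measured, 5 higher and 0 lower by 2-fold, with a median of 0.76. Hs6st2, a 6-sulfotransferase, had 29.8 CPM in Epcam-negative cells and 2.25 CPM in Epcam-positive cells (3.24), Sulf2, which removes 6-sulfates, 64.1 CPM in Epcam-negative and 18.7 CPM in Epcam-positive cells (1.73), and the 2-sulfotransferase gene Hs2st1 135.2 CPM in Epcam-negative and 49.6 CPM in Epcam-positive cells (1.43). The proteases that cleave aggrecan and versican had 5 of 8 measured, 3 higher and 0 lower, with a median of 2.56. Adamts5 had 100.98 CPM in Epcam-negative cells and 5.35 CPM in Epcam-positive cells (4.00, or 5.09 without 1 Epcam-positive cell), Adamts4 121.1 CPM in Epcam-negative and 18.6 CPM in Epcam-positive cells (2.64, or 3.42) and Adamts8 12.5 CPM in Epcam-negative and 1.29 CPM in Epcam-positive cells (2.56, or 3.34).

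**Figure D5:**
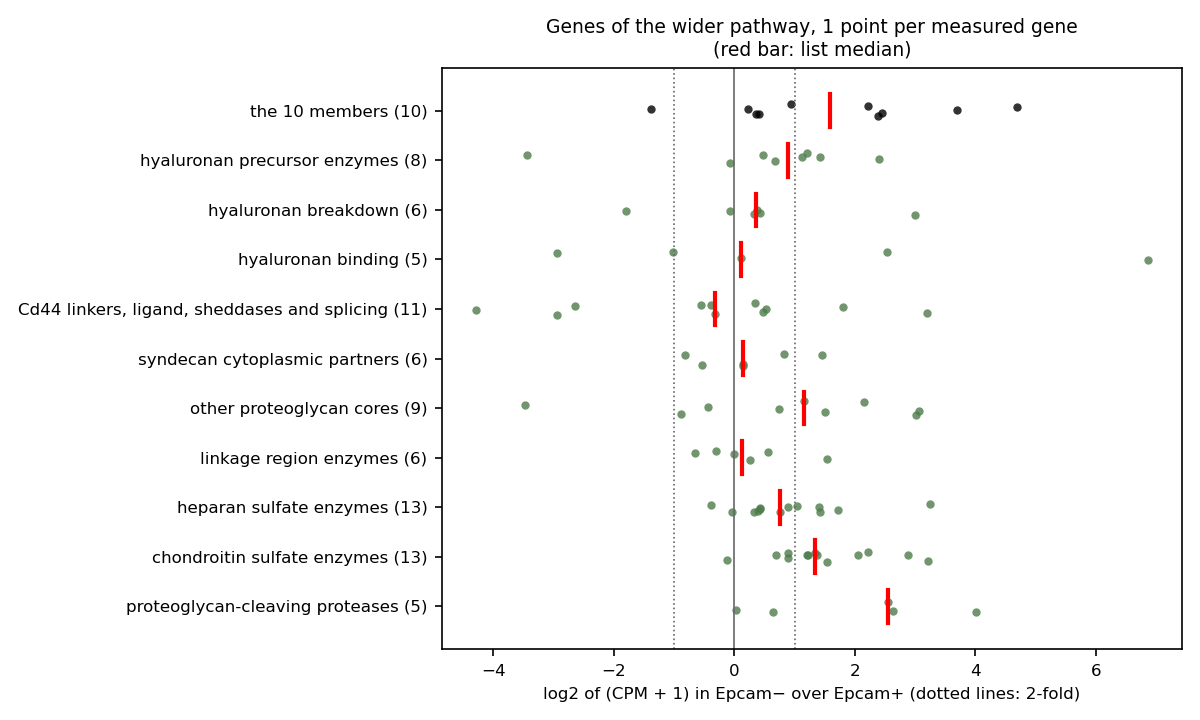
Log2 ratio of (CPM + 1) in Epcam-negative over Epcam-positive cells (x axis) for the 10 genes (black) and for 10 lists of related genes (rows; number measured in brackets), 1 point per gene and the list median in red. Chondroitin sulfate enzymes, with a median of 1.34, and proteoglycan-cleaving proteases, with 2.56, lie mostly to the right, while the Cd44-related list is spread from -4.29 to 3.19.

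A well sorted with 50 cells of the YFP+/Epcam- gate gave a separate look at the Epcam-negative levels, on 154897 gene reads. Cd44 had 1549 CPM there (exact interval 1360 to 1758), Vcan 439 (341 to 557), Sdc1 296.97 (217.4 to 396), Sdc2 652 (531 to 792), Hspg2 51.6 (22.3 to 101.8) and Has2 83.9 CPM (44.7 to 143.5). The summed single-cell levels of Cd44, Vcan, Sdc1 and Sdc2 lie inside these intervals, whereas that of Hspg2, 104.3 CPM, and that of Sdc4, 1632 CPM against 671 (549 to 814), lie above. Has1, Acan and Gpc1 had 2 reads each, 12.9 CPM (1.56 to 46.6); the summed single-cell level of Gpc1, 70.9 CPM, lies above that interval. Epcam had 0 reads, which allows up to 19.4 CPM.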

How the data were processed

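Single cells were sorted from skin tumours into a 384-well plate format and sequenced by Smart-seq2, which amplifies full-length cDNA and, per the labels' protocols, used oligo-dT priming, a spike-in RNA mix and 1 sequencing lane. The authors deposited raw read counts per gene and spike-in for 383 wells; there are no molecular identifiers, so PCR copies are counted. Per the submitters' processing notes, cutadapt 1.13, STAR 2.5.2b, HTSeq 0.6.0 and GRCm38 were used; annotation release and strand setting: not given in the sources used here. Of 49585 gene identifiers, 49326 received a GENCODE vM21 symbol and 259 did not; the 92 spike-ins entered no gene total.

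From the deposited counts, cells with at least 100000 gene reads, 2000 genes, at most 20% mitochondrial and 50% spike-in reads were kept (47 Epcam-negative and 8 Epcam-positive cells were left out). Doublets were discriminated at the sort, per the labels' protocols, and no caller was run. Part of the mouse genotype is not reported here. No wells shared counts or an index pair. Reads were summed per population and scaled to CPM; the ratio used a pseudocount of 1 CPM, a gene counted as measured at 10 CPM in either population, and differences past 2-fold were counted. Intervals are exact at 95%: binomial for ratios and shares, Poisson for levels; beside a count of 0 the limit of 3 counts is also given. Presence was called after thinning each cell to 100000 reads with a fixed seed. Named were all 10 genes; per list up to 3 measured genes with the largest absolute ratio and any going 2-fold against the list median; and the 3 genes most like each gene by rho. The 10 genes and all lists were chosen with earlier results of these data known. The calculation of ratios, intervals and rho was tested on simulated data with known fold changes; no test between populations was run. Alternatives were other cell filters, scalings (TMM from edgeR 4.0.16, median-of-ratios, spike-ins), pseudocounts, presence levels, cells and plate columns. Python 3.11.15, numpy 2.4.6, pandas 2.3.3 and scipy 1.17.1 were used.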

Additional observations from a re-analysis of the deposited data

Results flagged for a closer look

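Both wells labelled as holding 0 cells contained reads of the 10 genes although neither entered a sum. The well of the YFP+/Epcam+ gate held 374 reads of them on 99241 gene reads, with Cd44 at 1481 CPM, Sdc1 at 1270 CPM and Sdc4 at 826 CPM, beside Krt14 at 9029 CPM, and spike-in reads made up 7.66% of the well. The well of the YFP+/Epcam- gate held 8 reads of them on 4018 gene reads, 5 of Cd44, 2 of Vcan and 1 of Sdc4, with 76.2% spike-in reads. Where these reads came from was not tested.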

How the results depend on the processing

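Each population is 1 sample, so the spread between animals is unknown, and the intervals cover counting error only. No paired analysis was possible because the labels give no replicate numbers and no test was run. Of the 10 genes, the number higher by 2-fold or more in Epcam-negative cells was 5 or 6 and the number lower was 1 under all 13 alternatives. Among the wider lists, 24 to 39 were higher and 7 to 12 lower. The median log2 ratio of the 10 genes, 1.58, was 1.48 with the stricter cell filter, 1.71 with TMM, 1.69 with median-of-ratios, 1.23 with spike-in scaling, 1.04 with a pseudocount of 10 CPM, 1.92 without the cell with most reads of each gene, 1.99 on the left side of the plate (columns 1 to 12) and 1.12 on the right (columns 13 to 24). Before the pseudocount, the scalings shift each log2 ratio by 0.13 (TMM), 0.11 (median-of-ratios) and -0.35 (spike-ins); with it, genes of low level moved by less, Has1 being 4.77 with TMM and 4.48 with spike-ins beside 4.69. Has1, Acan, Vcan, Hspg2, Sdc1 and Sdc2 were past 2-fold in the same direction in 12 of 12 alternatives, Has2 in 5, and Cd44, Sdc4 and Gpc1 in 0. With 1 thinned read taken as presence, Has2 was present in 45.6% of Epcam-negative and 25.8% of Epcam-positive cells, and with 20 reads in 9.89% of Epcam-negative and 4.84% of Epcam-positive cells. For the other movements the cause was not tested.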
